A study of Mus musculus with 22 samples.

Results

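The genes described here are 41 immediate-early and dissociation response genes, a list of transcription factors, phosphatases, signalling brakes and stress genes listed by gene symbol. Probe sets that map to 1 listed symbol alone were used, and of several for a gene the one with the highest mean. This gave a value for 40 of the 41 genes, out of 19937 genes with such a probe set, and all 40 were among the 11830 genes bright enough to be tested. Hspa1b has no value, because its only probe set is shared with Hspa1a. The 2 genes are near-identical copies, so the value printed for Hspa1a may hold signal of both. Expression was measured on 22 Affymetrix mouse gene arrays from microglia, the resident macrophages of the brain, isolated by flow sorting on the surface proteins CD11b, CD45 and F4/80. Before sorting, brains of perfused mice had been broken down to single cells with a neural tissue dissociation kit and cleared of myelin. WT control (2 arrays) and KO control (2 arrays) came from wild-type and Trem2 knockout mice labelled as negative controls. WT cuprizone and KO cuprizone (3 arrays each) came from mice fed 0.2% cuprizone, a copper chelator that kills oligodendrocytes, for 4 weeks after 2 weeks of normal chow. WT Covi-Ox (3 arrays) received, for 4 weeks, feed with 0.1% Covi-Ox, a mixture of tocopherols with added alpha tocopherol. WT both (3 arrays) received Covi-Ox for 2 weeks and then Covi-Ox with cuprizone for 4 weeks. A last pair of Trem2 knockout groups of 3 arrays carries contradictory labels: KO set A is titled as having had both additives and described elsewhere as Covi-Ox alone, and KO set B the other way round. The labels do not describe the knockout allele, and no age or sex is given. The labels do not say whether arrays of a group are separate animals, so p-values measure the spread between arrays, which may be technical.

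Immediate-early genes are transcribed within minutes of a signal, from promoters that are already open and without new protein synthesis. Kinases of the MAPK and calcium pathways act on factors bound beforehand, such as serum response factor at CArG boxes and CREB at cyclic AMP response elements (CRE). The first products are AP-1, EGR, NR4A and KLF factors, soon followed by brakes that end the response: phosphatases of MAPK (Dusp), mRNA decay factors (Zfp36) and inhibitors of NF-kB (Nfkbia). In microglia these genes respond to injury and inflammatory signals, and they are also known to be switched on while brain tissue is digested into single cells. Their level in sorted cells therefore includes what happened between the living brain and lysis.

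Array medians lay between 36.1 and 38.6 intensity units, and no 2 arrays held identical values (highest correlation between 2 arrays 0.987). Trem2 read 10.00 to 10.75 (log2 intensity) on the 11 WT arrays and 6.40 to 6.83 on the 11 KO arrays, as the genotype labels say. The mean log2 value of 11 measured microglia markers, P2ry12 and Tmem119 among them, was 11.1 to 11.7 on all arrays, while means of 5 astrocyte, 5 neuron and 7 lymphocyte markers stayed between 4.21 and 5.05, below the array medians of 5.17 to 5.27. Single markers of these lists were brighter, such as Cd79b at 6.98 to 7.78 and Gja1 at up to 5.99. Means of oligodendrocyte, monocyte and endothelial markers reached 5.81, 5.87 and 5.60. Neutrophil markers (10 measured, S100a8 and S100a9 the brightest) averaged 6.61 to 6.63 in WT control, 4.16 to 4.51 in WT Covi-Ox, 4.91 to 5.17 in WT both, 5.14 to 6.43 in WT cuprizone, 6.01 to 6.04 in KO control, 5.40 to 6.48 in KO cuprizone, 4.72 to 4.81 in KO set A and 4.45 to 5.36 in KO set B. Border macrophage markers (8 measured) averaged 8.26 to 8.28 in WT control, 7.57 to 7.99 in WT cuprizone, 8.08 to 8.33 in WT Covi-Ox, 7.33 to 7.65 in WT both, 7.81 to 8.02 in KO control, 7.09 to 8.33 in KO cuprizone, 7.89 to 8.22 in KO set A and 7.27 to 7.79 in KO set B. Their part in the results on the 40 genes was not tested, and in bulk samples fewer cells of a type cannot be told apart from less RNA per cell.

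Because the members are known for shared promoter elements, RefSeq promoter windows were searched (assembly GRCm38.p6, 250 bases before to 50 after a gene's start, both strands). Windows existed for 33 of the 41 genes. A full CRE, TGACGTCA, lay in the windows of Maff, Btg2, Dusp1 and Ppp1r15a, which is 12.1% of the members with a window beside 3.48% of 9470 tested genes with one. The CRE core, TGACG, which the full CRE contains, lay in 20 members (60.6% beside 34.6%). CArG boxes, searched under that name in its standard form, lay in Egr2, Dusp5 and Zfp36 (9.09% beside 1.52%). The EGR site GCGGGGGCG was found in 7 members (21.2% beside 6.18%), an NF-kB site of the usual form in 7 (21.2% beside 9.87%), the AP-1 site TGACTCA in 1, Csrnp1 (3.03% beside 4.51%), and a heat shock element (GAA, TTC and GAA, each 2 bases apart) in 0 members (0.581% of tested genes). Median GC content was 62.5% in windows of members and 60.3% in those of tested genes. These are matches of letters and not sites of binding. The stretches with a CRE are shown first, with the CRE in capitals, because Maff has the lowest adjusted p of the members and Dusp1, Btg2 and Ppp1r15a are members of 3 other roles.
Maff, chr15:79347451-79347519, plus strand: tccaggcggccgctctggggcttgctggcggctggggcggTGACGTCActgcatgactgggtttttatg
Btg2, chr1:134079274-134079361, minus strand: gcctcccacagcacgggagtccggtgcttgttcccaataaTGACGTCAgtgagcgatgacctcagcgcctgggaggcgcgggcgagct
Dusp1, chr17:26508568-26508655, minus strand: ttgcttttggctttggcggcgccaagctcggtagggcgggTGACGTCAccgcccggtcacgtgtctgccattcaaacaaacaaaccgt
Ppp1r15a, chr7:45526269-45526320, minus strand: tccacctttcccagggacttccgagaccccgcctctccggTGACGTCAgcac
In the next stretches the capitals mark CArG boxes, shown because they are the docking sequence of serum response factor. Dusp5 holds 2 of them side by side, and the stretch of Egr2 is from 1 of its windows.
Dusp5, chr19:53529023-53529112, plus strand: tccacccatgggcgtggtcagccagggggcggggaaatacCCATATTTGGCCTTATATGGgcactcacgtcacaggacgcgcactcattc
Egr2, chr10:67537757-67537846, plus strand: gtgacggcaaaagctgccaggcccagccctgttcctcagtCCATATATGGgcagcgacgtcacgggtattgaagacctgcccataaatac
Zfp36, chr7:28379237-28379326, minus strand: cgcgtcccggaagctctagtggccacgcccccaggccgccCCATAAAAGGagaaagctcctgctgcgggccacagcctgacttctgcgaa
The last is the 250 bases before the start of Nr4a1, shown because this gene varied most between arrays of a group (chosen after its values were seen). The capitals mark its 4 CRE cores, all on the reverse strand.
Nr4a1, chr15:101266596-101266845, plus strand: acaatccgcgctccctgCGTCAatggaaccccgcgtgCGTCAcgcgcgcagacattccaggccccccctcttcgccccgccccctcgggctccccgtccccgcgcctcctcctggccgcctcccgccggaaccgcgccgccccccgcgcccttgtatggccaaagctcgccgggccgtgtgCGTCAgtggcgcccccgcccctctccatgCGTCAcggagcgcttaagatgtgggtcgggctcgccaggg

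The first question was how much of the variation in these genes lay between arrays of one group. The mean log2 value of the 40 genes reached 8.36 for array WT cuprizone 3, 8.60 for KO cuprizone 2 and 8.67 for KO cuprizone 3, while the other 19 arrays lay between 9.502 and 9.80. WT cuprizone 3 and this pair of KO arrays are called the 3 low arrays here. They were the 3 lowest of the 22 for 32 of the 40 members, which held for 1.96% of all genes tested. The arrays are named from the mean of these same members, so this count and those below follow in part from that choice and are not a test. WT cuprizone 3 alone was the lowest array for 26 members (11.4% of all genes), KO cuprizone 2 for 7 (4.31%) and KO cuprizone 3 for 5 (7.50%). The exceptions among the lowest were Nr4a2 on KO set A 1 and Dusp6 on WT both 1. Over all genes the array most often lowest was KO control 2 (16.2%), which was the lowest for 0 members. It was lower than KO control 1 by more than 1 (log2) for 208 genes, 0 of them members. KO control is the reference for KO cuprizone, KO set A and KO set B, so the 3 low arrays are not the only ones that deviate.

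On WT cuprizone 3 all 40 members lay below the mean of the other arrays of that group, by a median of -1.28 (log2, range -3.64 to -0.23), while the median of all genes there was -0.01. Only 117 of the 11830 genes were lower than that mean by more than 1 on this array, and 26 of them were members. KO cuprizone 2 and KO cuprizone 3 each lay below the mean of the other arrays of their group for 36 members, although each is measured there against the other low array. Marker means on the 3 low arrays lay within the range of the other 19 for neutrophils (5.14, 6.26 and 5.40 against 4.16 to 6.63) and microglia (11.2, 11.7 and 11.7 against 11.1 to 11.7). Border macrophage markers were at 7.57, 7.52 and 7.09 against 7.27 to 8.33 elsewhere, so KO cuprizone 3 was below the others. Within their own groups all 3 low arrays were lower in this list: WT cuprizone reached 7.99, and KO cuprizone 1 read 8.33. Neutrophil means had the same order, with up to 6.43 in WT cuprizone and 6.48 on KO cuprizone 1. Microglia means were lowest of the group on WT cuprizone 3 (the group reached 11.4), but in KO cuprizone on array 1 (11.5). Monocyte markers (5 measured) were at 5.87, 5.34 and 5.01 against 4.34 to 5.82, the first through Fn1, which read 10.05 on WT cuprizone 3, its highest value of all arrays, but 5.31 and 5.02 on the other low arrays. Endothelial markers (4 measured) were at 5.60 on WT cuprizone 3 against 4.98 to 5.59, through Flt1, which read 7.11 there (median of all arrays 4.67). Cldn5, Pecam1 and Cdh5 were each below their own medians on that array. Oligodendrocyte markers (5 measured) were at 5.48 on KO cuprizone 3 against 5.56 to 5.81. Astrocyte markers were at 4.53 on KO cuprizone 2 against 4.57 to 5.05, and neuron markers at 4.247 on KO cuprizone 3 against 4.255 to 4.70. The part of these lists in the low values was not tested.

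**Figure D1:**
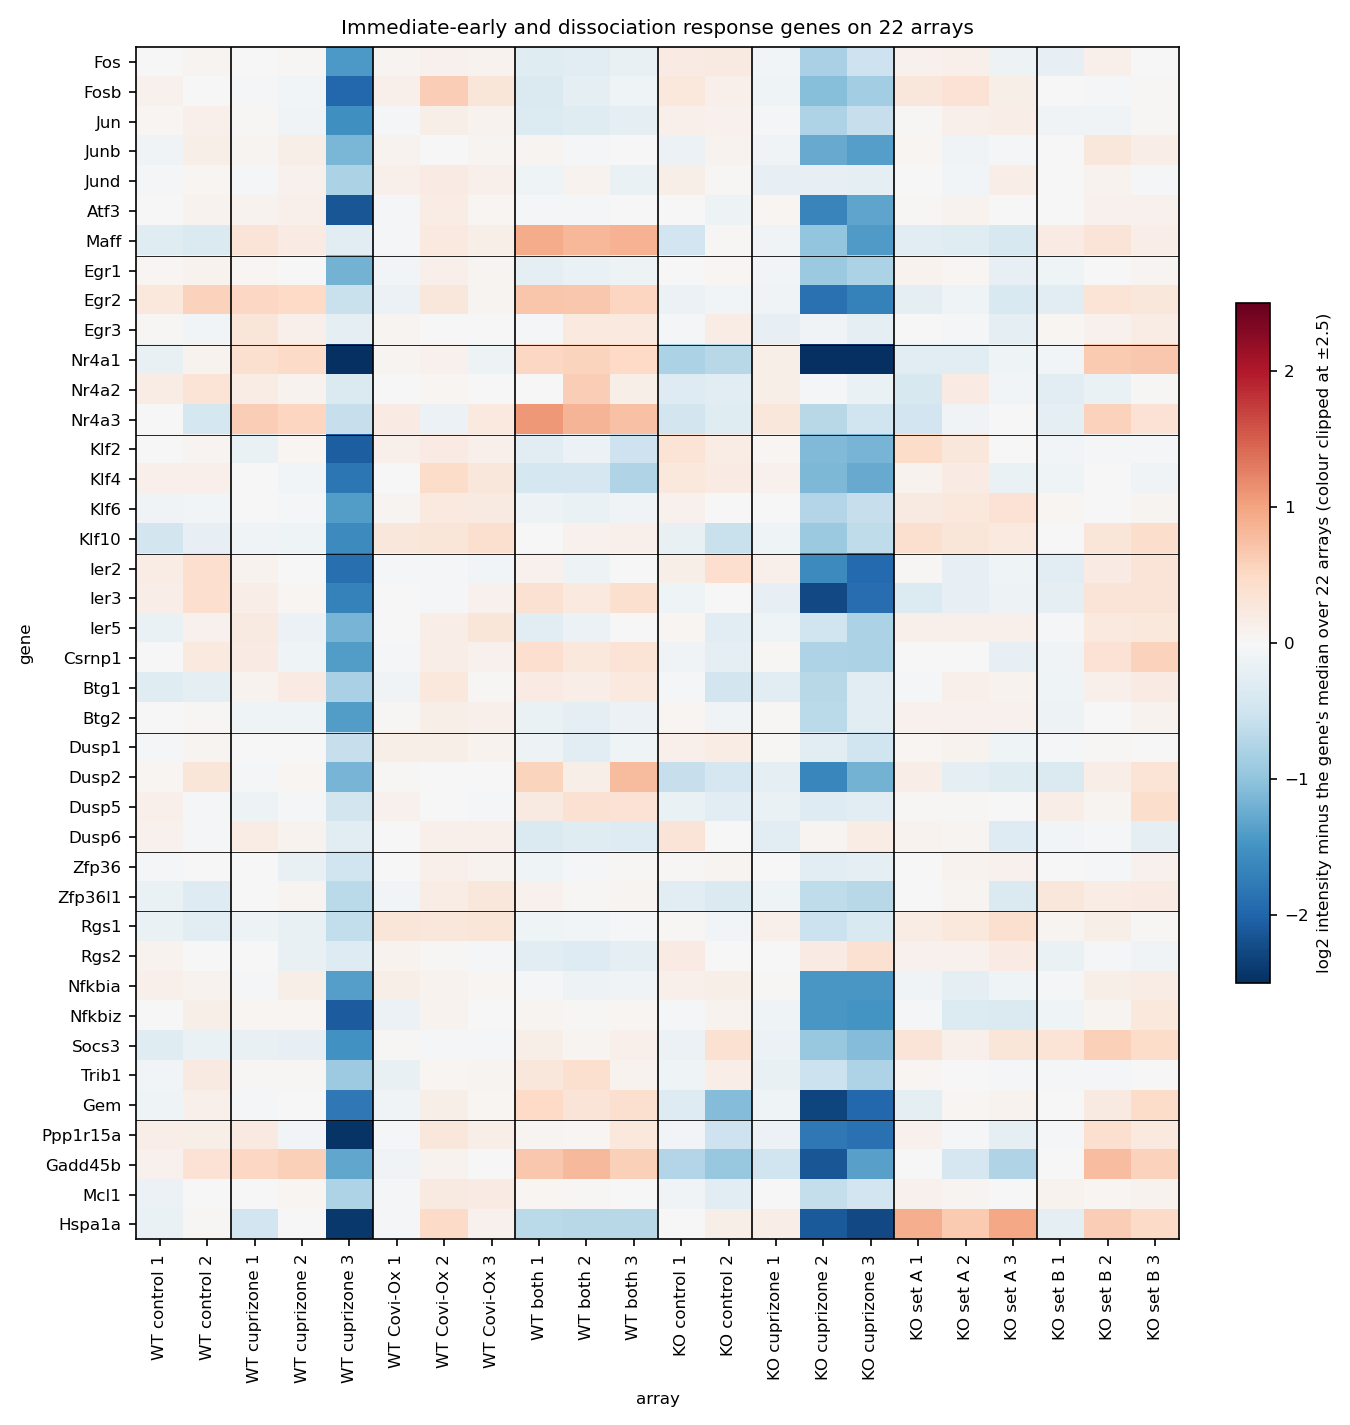
Log2 intensity of each of the 40 members (rows, ordered by role) on each of the 22 arrays (columns, ordered by group), minus the gene's median over the 22 arrays; blue is lower, red is higher, and colours are clipped at 2.5. The 3 dark columns are WT cuprizone 3, KO cuprizone 2 and KO cuprizone 3, and the 3 WT both arrays stand out in Maff and Nr4a3.

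The largest spread belonged to Nr4a1, an orphan nuclear receptor induced by calcium and cyclic AMP signals. It read 10.36, 10.43 and 6.75 on WT cuprizone 1 to 3 and 10.10, 7.16 and 7.05 on KO cuprizone 1 to 3, with the other arrays between 9.17 and 10.63. The 3 low arrays were thus at least 2.01 (log2) below every other array, and the pooled SD within groups was 1.04. Atf3, a stress-induced repressor of the AP-1 family, was as steady elsewhere as it was low there. Its values were 10.06, 10.55 and 10.89 on the 3 low arrays and 12.07 to 12.39 on the other 19 (pooled SD 0.60 with all arrays and 0.07 without the 3).

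Stress genes came next. Hspa1a, an inducible chaperone of the HSP70 family, read 8.27, 8.74 and 6.34 in WT cuprizone and 8.92, 6.66 and 6.49 in KO cuprizone, against 8.06 to 9.72 on the 19 arrays that are not low. Ppp1r15a (GADD34), which directs a phosphatase to eIF2alpha to restart translation after stress, read 9.62, 9.32 and 6.95 in WT cuprizone and 9.24, 7.61 and 7.54 in KO cuprizone, against 8.88 to 9.80. For both genes the 3 low arrays lay more than 1 (log2) under the lowest of the others.

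Similar gaps were seen in immediate early response genes and signalling brakes. Ier2, a nuclear protein of the first wave, read 7.90, 8.19 and 7.84 on the 3 low arrays and 9.53 to 10.21 elsewhere. Ier3, a survival factor, read 9.24, 8.68 and 9.03 on the same arrays and 10.59 to 11.34 elsewhere. Nfkbiz, a nuclear IkB protein that tunes NF-kB targets, read 8.49, 9.11 and 9.08 and otherwise 10.20 to 10.84. Gem, a small GTPase that limits calcium channels, read 7.40, 6.90 and 7.22 and otherwise 8.10 to 9.69, the lowest of these on KO control 2. In all 4 genes the 3 low arrays did not overlap with the other 19. Their pooled SD was 0.61 for Ier2, 0.59 for Ier3, 0.56 for Nfkbiz and 0.62 for Gem.

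Classical members of the first wave were low on the same arrays. Fos, partner of Jun in AP-1, read 10.20, 10.84 and 11.12 on the 3 low arrays and 11.34 to 11.88 elsewhere. Jun read 10.39, 11.15 and 11.35 against 11.58 to 12.08, and Egr1, a zinc finger factor of the first wave, 11.01, 11.26 and 11.40 against 11.97 to 12.33. Klf2, a zinc finger factor that holds macrophages quiet, read 7.09, 8.04 and 7.99 against 8.63 to 9.60. The order of the 3 low arrays was not fixed: WT cuprizone 3 was lowest for these 4 genes, KO cuprizone 2 for Egr2, Nfkbia, Gem and Gadd45b.

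Some members hardly took part. The smallest pooled SD were those of Rgs2 (0.11), Zfp36 (0.12), Dusp5 (0.13) and Egr3 (0.14). Rgs2, a brake on G-protein signals, read 10.68, 10.48 and 10.35 in WT cuprizone but 10.67, 10.88 and 11.05 in KO cuprizone, so that 2 of the 3 low arrays were among its higher ones. Dusp6, a phosphatase of ERK that is induced through ERK itself, had the same pattern, with 10.35 on WT cuprizone 3 and 10.71 and 10.83 on KO cuprizone 2 and 3, above the 10.36 of KO cuprizone 1. Zfp36 (tristetraprolin), which binds AU-rich mRNA and speeds its decay, read 11.04, 11.27 and 11.31 on the 3 low arrays and 11.36 to 11.68 elsewhere. Dusp1, which inactivates p38 and JNK, read 11.86, 12.17 and 11.92 and otherwise 12.17 to 12.60. For Zfp36 and Dusp1 the arrays still kept apart, by 0.05 and by less than 0.01 (log2). Jund, Maff, Egr3, Nr4a2, Btg1 and Dusp5 were the other members for which at least 1 of the 3 low arrays overlapped with the rest.

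Set against all genes, the spread of the members was wide in the cuprizone-only groups and ordinary in the rest. The median pooled SD within groups was 0.37 (log2) for members and 0.17 for all genes, and 23 of 40 members exceeded the 95th percentile of all genes (0.33). Inside WT cuprizone and KO cuprizone the median was 0.65 for members and 0.17 for all genes, and inside the other 6 groups it was 0.14 and 0.16. The SD was wider in the cuprizone-only groups for 40 of 40 members and for 58.3% of all genes. After leaving out the 3 low arrays, an exclusion made on the outcome and known from earlier results, the median was 0.14 for members and 0.16 for all genes, and 0 members exceeded the 95th percentile. This exclusion narrowed the spread of the members more than that of all genes, so every count of members called without the 3 low arrays is favoured by it. Of the total sum of squares a median of 0.49 then lay between groups with all arrays and 0.75 without the 3, compared with 0.45 and 0.51 for all genes. Rgs1 (0.93), Maff (0.94) and Klf6 (0.89) had the highest shares between groups without the 3 arrays, and Junb (0.42) had the lowest.

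**Figure D2:**
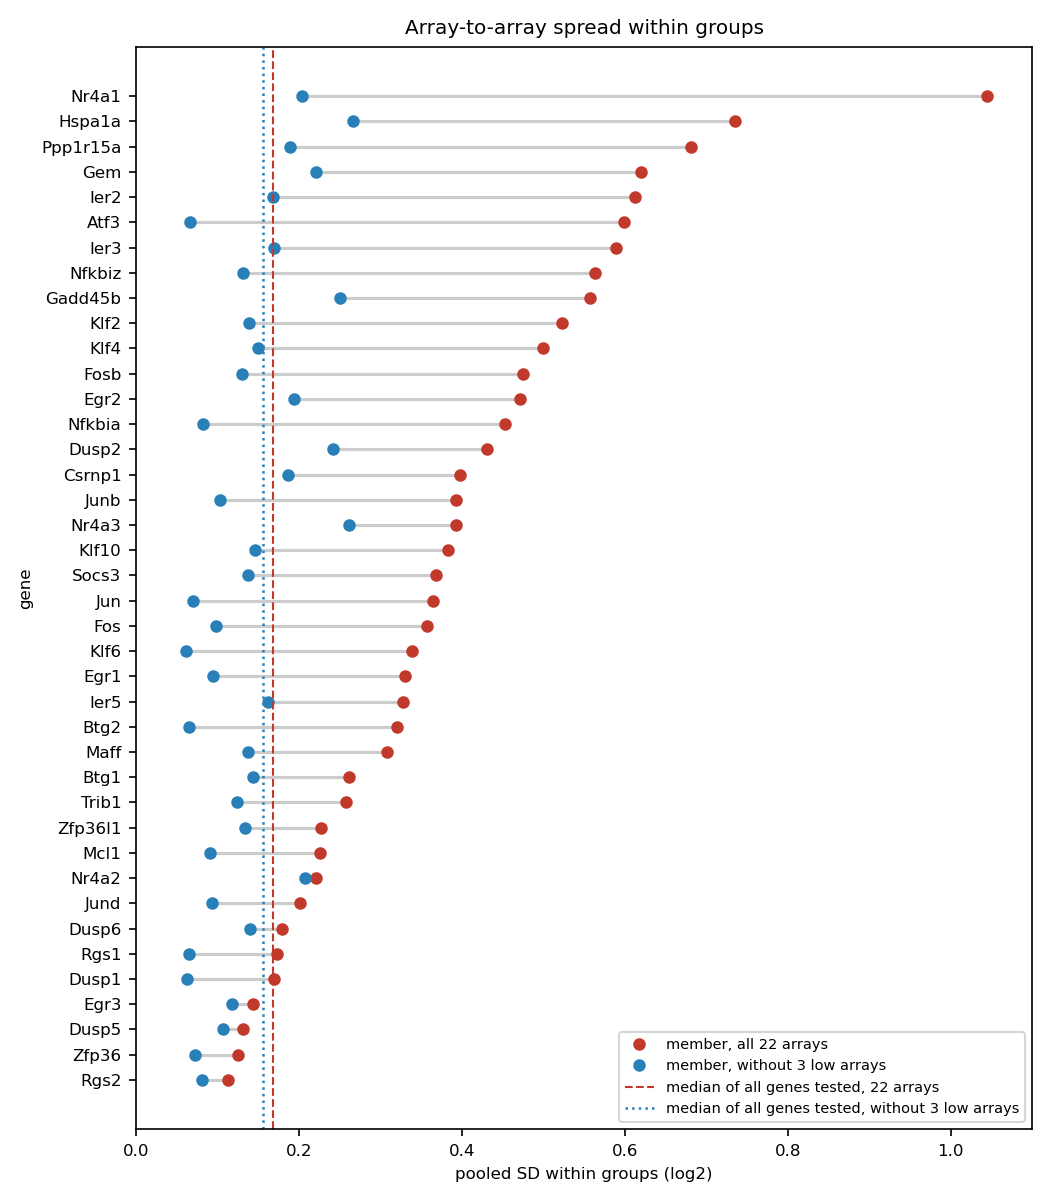
Pooled SD within groups (log2) of each member with all 22 arrays (red) and without the 3 low arrays (blue); vertical lines mark the medians of all genes tested, 0.17 and 0.16. With all arrays 36 of 40 members lie above the median of all genes, and without the 3 arrays 13 do.

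Cuprizone alone was compared with control in each genotype, and no member could be called in either. In wild type 35 of 40 differences were negative, with a median of -0.38 (log2, all genes -0.02), and limma called 0 members (2 at an unadjusted p under 0.05) where it called 2.5% of all genes. In the knockout 37 were negative, with a median of -0.52 (all genes 0.00), and 0 members were called (16 at an unadjusted p under 0.05) beside 0.0423% of all genes. For the effect averaged over both genotypes the median was -0.45, with 0 members called (23 at an unadjusted p under 0.05) and 3.98% of all genes. The standard errors below carry the spread described above.

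Single members show what the averages hold. Ier2 differed by -0.91 ± 0.48 (SE) in WT and by -1.42 ± 0.48 in KO (adjusted p = 0.361 and 0.227). Hspa1a differed by -0.90 ± 0.57 and -1.47 ± 0.57 (adjusted p = 0.464 and 0.284), and Nr4a1 by -0.73 ± 0.81 and -1.11 ± 0.81 (adjusted p = 0.718 and 0.595). Fos differed by -0.51 ± 0.29 in WT and by -0.68 ± 0.29 in KO (adjusted p = 0.399 and 0.311). Each of these differences was smaller than the distance between the highest and the lowest array of its cuprizone group.

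Most of these differences moved toward 0 when the 3 low arrays were left out. The median was -0.03 in WT, where 2 cuprizone arrays are left, and -0.02 in KO, where KO cuprizone 1 stands alone. Ier2 was then at -0.26 and -0.16, Fos at -0.02 and -0.28, and Atf3, at -0.68 and -0.89 before, at 0.07 and 0.13. Nr4a1 turned to 0.49 in WT and 0.88 in KO, and Nr4a3 went from 0.42 and 0.07 to 0.81 and 0.65. In WT limma then called 1 member higher, Maff at 0.60 ± 0.14 (adjusted p = 0.0435), beside 1.56% of all genes. The KO values without the 3 arrays are sizes only, since they rest on 1 cuprizone array.

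Which arrays are kept decided the number of calls. Without KO cuprizone 1, the KO cuprizone array that is not low, 7 members were called lower in KO cuprizone (Junb, Maff, Egr2, Ier2, Ier3, Nfkbia and Hspa1a) and 20 in the average over genotypes. That fit keeps only low arrays in KO cuprizone. Without WT cuprizone 1 or WT cuprizone 2 the average over genotypes called 7 and 10. Shares of all genes in these fits are not printed here, so the counts show only their dependence on single arrays. The difference of the cuprizone effects between genotypes had a median of -0.18, with 0 members called (2 at an unadjusted p under 0.05, Maff at -1.02 ± 0.35 and Nr4a2 at 0.57 ± 0.27) beside 0.228% of all genes.

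**Figure D3:**
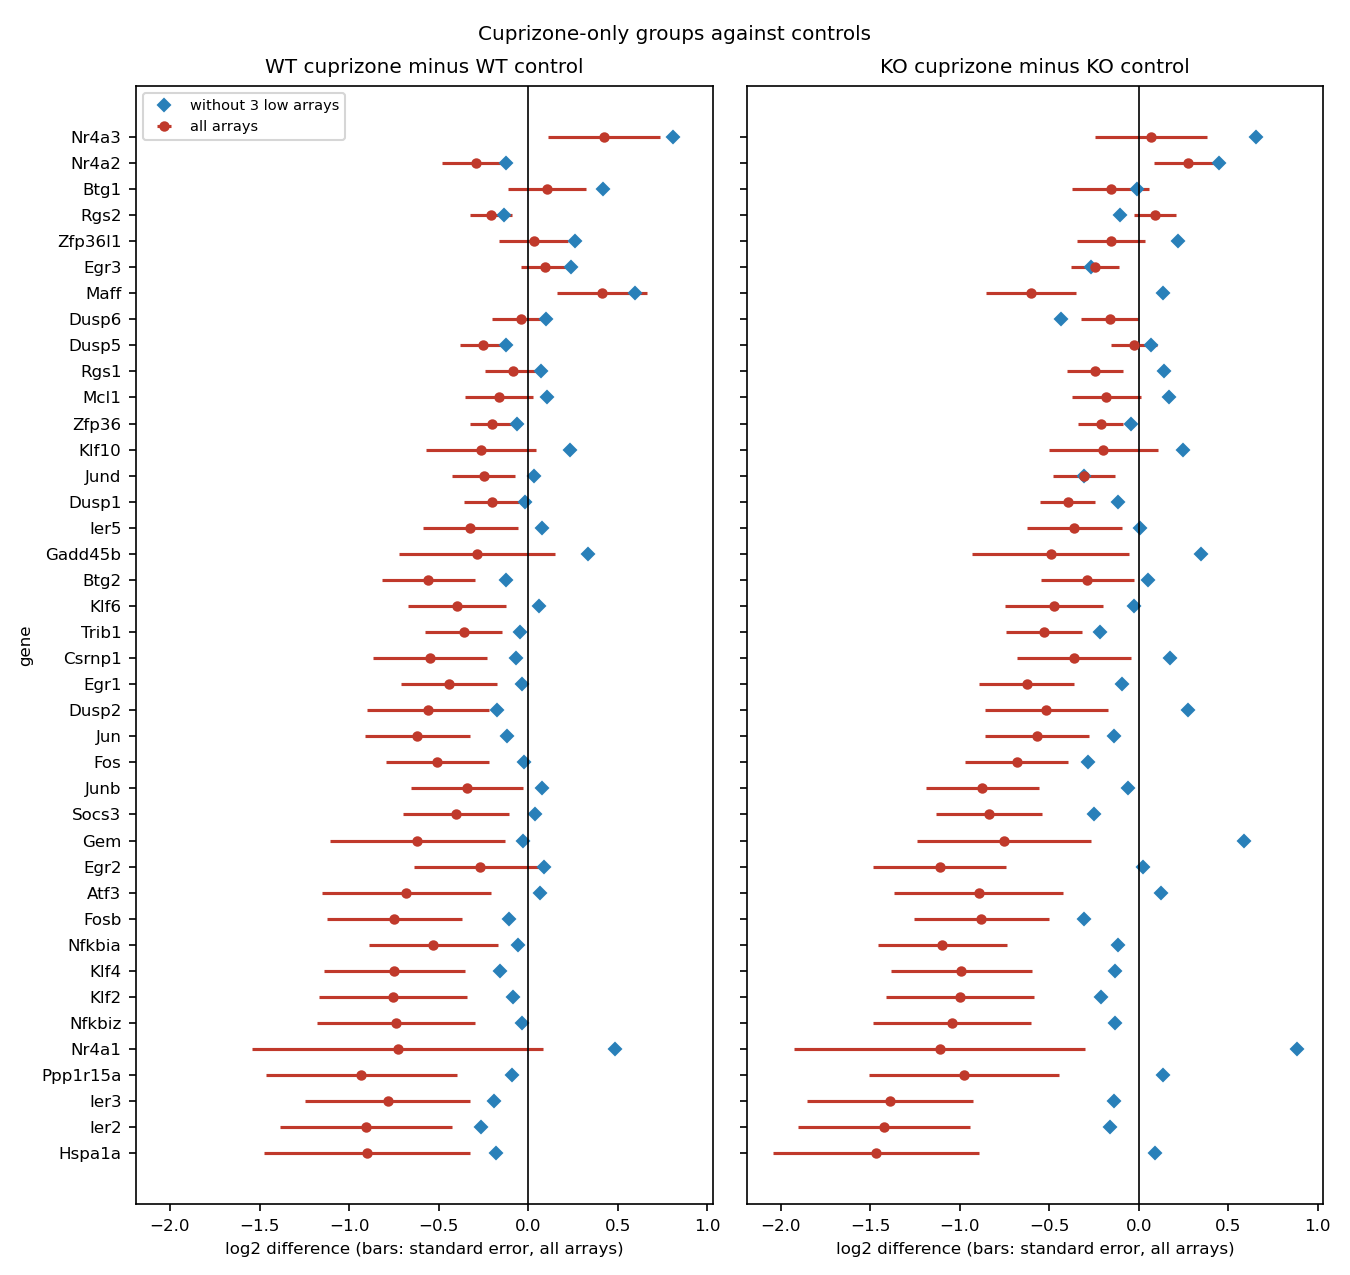
Log2 difference of each member between cuprizone-only and control arrays in WT (left) and KO (right), with all arrays (red, bars are standard errors) and without the 3 low arrays (blue diamonds, no error drawn). Medians are -0.38 and -0.52 with all arrays and -0.03 and -0.02 without the 3, and Nr4a1 and Nr4a3 are the diamonds farthest to the right in KO.

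Cuprizone fed together with Covi-Ox in wild type gave no larger share of calls among members than among all genes (5% beside 7.09%, all arrays). Against WT control limma called 2 of 40 members (6 at an unadjusted p under 0.05), both higher, beside 7.09% of all genes, and the median over members was -0.02. Maff, a small Maf protein that pairs with AP-1 and CNC factors, read 8.29, 8.19 and 8.22 on WT both and 7.05 and 7.00 on WT control. It read 7.68, 7.56 and 7.07 on WT cuprizone, 7.32, 7.59 and 7.50 on WT Covi-Ox, 6.87 and 7.39 on KO control, 7.27, 6.38 and 5.94 on KO cuprizone, 7.09, 7.05 and 6.96 on KO set A and 7.55, 7.69 and 7.53 on KO set B. The WT both arrays lay above all the other arrays of the study for this gene. Maff was 2.31-fold higher in WT both than in WT control (log2 difference 1.21 ± 0.25 SE, adjusted p = 0.00493).

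Nr4a3, the third receptor of the NR4A family, read 7.05, 6.82 and 6.70 on WT both and 5.95 and 5.51 on WT control. Its other values were 6.58, 6.49 and 5.39 on WT cuprizone, 6.16, 5.81 and 6.20 on WT Covi-Ox, 5.50 and 5.66 on KO control, 6.24, 5.26 and 5.46 on KO cuprizone, 5.48, 5.87 and 5.97 on KO set A and 5.73, 6.54 and 6.32 on KO set B. Here too the WT both arrays were the highest of the study, and the gene was 2.18-fold higher than in WT control (1.12 ± 0.31, adjusted p = 0.0352). Leaving out either WT control array ended both calls, so that 0 members were called, and leaving out any 1 WT both array left Maff alone. Between the same groups 7 of 11 microglia markers were called lower in WT both (median -0.39), as were 6 of 7 neutrophil and 4 of 8 border macrophage markers. Of 4 tested monocyte markers only Fn1 was called, higher by 4.27, and the median of that list was -0.38. Their part in the member differences was not tested.

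The test shares its spread among all 22 arrays, so the 3 low arrays widen every interval, also where no cuprizone-only group is compared. Fitted on WT both and WT control alone, 6 members passed (8.7% of all genes): Maff, Nr4a1, Nr4a3 and Btg1 were higher, and Klf4 and Hspa1a lower. A fit of the other 19 arrays passed 6 as well (10.5% of all genes), with Jun in the place of Hspa1a. That count is favoured by the exclusion, which was made on the values of these members. Klf4, a factor of macrophage polarization, read 8.31, 8.32 and 7.99 on WT both and 8.86 and 8.88 on WT control (-0.66, adjusted p = 0.0215 from these 5 arrays and 0.379 from all). Btg1, an antiproliferative cofactor, read 10.59, 10.55 and 10.63 against 10.07 and 10.14 (0.48, adjusted p = 0.0259 and 0.213).

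**Figure D4:**
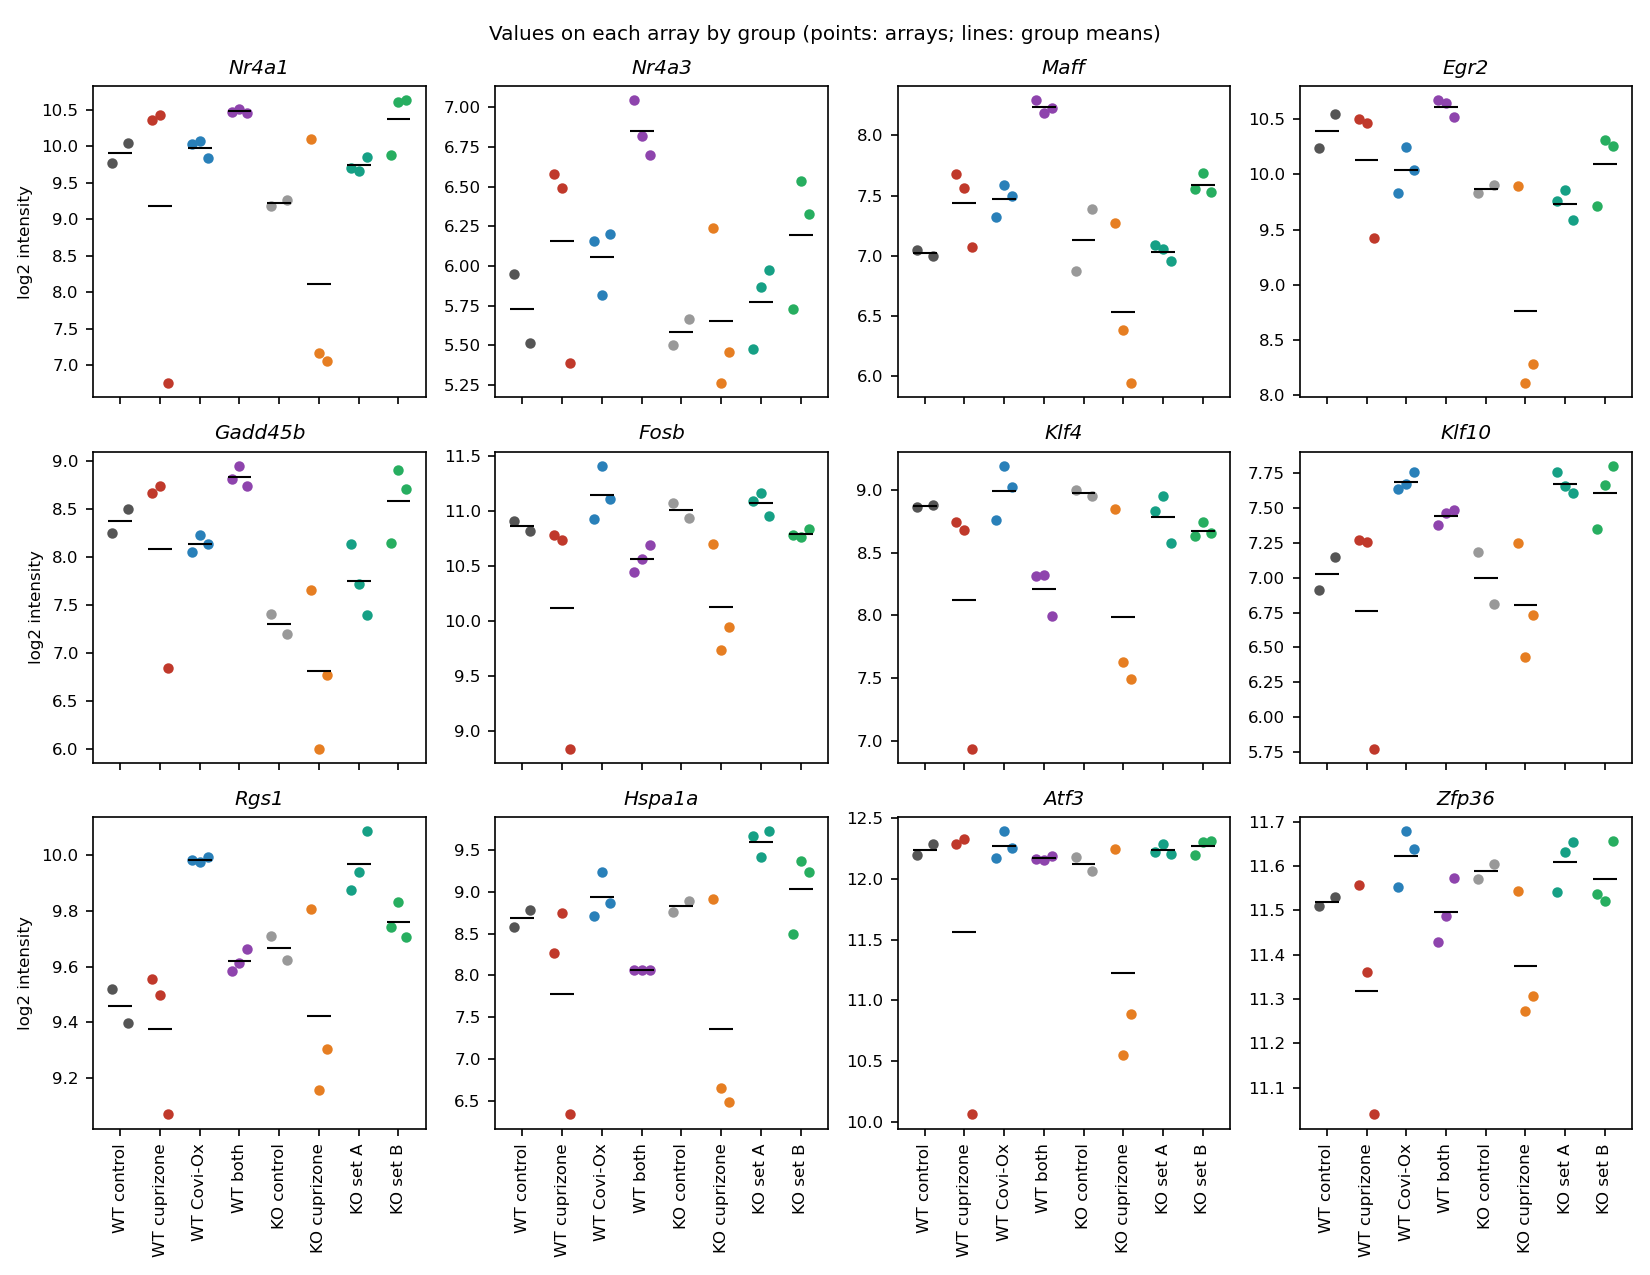
Log2 intensity of 12 members on each array, by group (points are arrays, lines are group means; the axes differ between genes and do not start at 0). Maff and Nr4a3 are highest in WT both, Klf10 and Rgs1 are higher in WT Covi-Ox than in WT control, and Atf3 is even in all groups outside the 3 low arrays.

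WT both and WT Covi-Ox differ by cuprizone in the feed and, as labelled, by 2 weeks of Covi-Ox before it. These 2 differences cannot be told apart, and neither group holds a low array. The arrays of the groups did not overlap for 29 of 40 members, and this was so for 30.5% of all genes. With the spread of all 22 arrays 1 member was called, Maff, beside 7.82% of all genes (8 members at an unadjusted p under 0.05). It was 1.7-fold higher (0.76 ± 0.22, adjusted p = 0.0411), a call that ended without any 1 array of WT both, WT Covi-Ox, WT control or KO set A, and without KO set B 1 or KO set B 3. Fitted on the 6 arrays themselves, 14 members passed (10.4% of all genes). Of these 6 were higher (5.93% of all genes) and 8 lower (4.43% of all genes), so members stood on both sides.

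The 6 higher members were Nr4a3, Nr4a1, Gadd45b, Egr2, Maff and Gem. Nr4a3 was higher by 0.80 ± 0.13 (adjusted p = 0.00698) and Nr4a1, at 10.47, 10.51 and 10.45 against 10.04, 10.07 and 9.84, by 0.50 ± 0.10 (adjusted p = 0.0133). Gadd45b, which activates p38 signals under stress, read 8.81, 8.95 and 8.74 against 8.06, 8.23 and 8.13 (0.70 ± 0.10, adjusted p = 0.00271). Egr2, a factor of macrophage activation, read 10.67, 10.64 and 10.52 against 9.83, 10.25 and 10.04 (0.57 ± 0.12, adjusted p = 0.0194). Maff was higher by 0.76 ± 0.10 in this fit and Gem by 0.37 ± 0.10, the second just past the threshold (adjusted p = 0.0497).

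Lower were the classical AP-1 pair, KLF factors and the chaperone. Fos read 11.34, 11.37 and 11.45 on WT both and 11.70, 11.76 and 11.74 on WT Covi-Ox, a difference of -0.34 ± 0.09 (adjusted p = 0.0376). Fosb read 10.44, 10.57 and 10.69 against 10.93, 11.41 and 11.10 (-0.58 ± 0.13, adjusted p = 0.0271), and Jun 11.58, 11.61 and 11.69 against 11.87, 12.06 and 12.003 (-0.35 ± 0.09, adjusted p = 0.0453). Klf4 differed by -0.78 ± 0.14 and Klf2, at 8.88, 8.997 and 8.63 against 9.28, 9.35 and 9.27, by -0.46 ± 0.11 (adjusted p = 0.00878 and 0.0312). For each of these 5 genes the highest WT both array was below the lowest WT Covi-Ox array.

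The remaining lower members act as brakes or chaperones. Hspa1a read 8.07, 8.06 and 8.06 on WT both and 8.71, 9.24 and 8.86 on WT Covi-Ox (-0.87 ± 0.13, adjusted p = 0.00426). Dusp6 read 10.27, 10.33 and 10.31 against 10.66, 10.76 and 10.78 (-0.43 ± 0.09, adjusted p = 0.0176), and Rgs1, a brake on chemokine receptors, 9.59, 9.61 and 9.66 against 9.98, 9.97 and 9.99 (-0.36 ± 0.08, adjusted p = 0.0286). With all arrays but the 3 low ones 17 members passed (11.6% of all genes), 5 higher and 12 lower, and Gem was not among them, while Klf6, Btg2, Dusp1 and Rgs2 were added as lower. The 3 arrays were left out for their values in these members, which favours this count over the share of all genes. Members near 0 in this comparison included Junb (-0.04 ± 0.09), Ier2 (0.04 ± 0.10), Nfkbiz (0.07 ± 0.10) and Atf3 (-0.10 ± 0.09). In the same comparison 9 of 11 microglia markers were called lower in WT both (means 11.13 to 11.18 against 11.57 to 11.60), as were 4 of 8 border macrophage markers (7.33 to 7.65 against 8.08 to 8.33). Of 7 tested neutrophil markers 1 was called higher (means 4.91 to 5.17 against 4.16 to 4.51). The part of these markers in the differences was not tested.

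**Figure D5:**
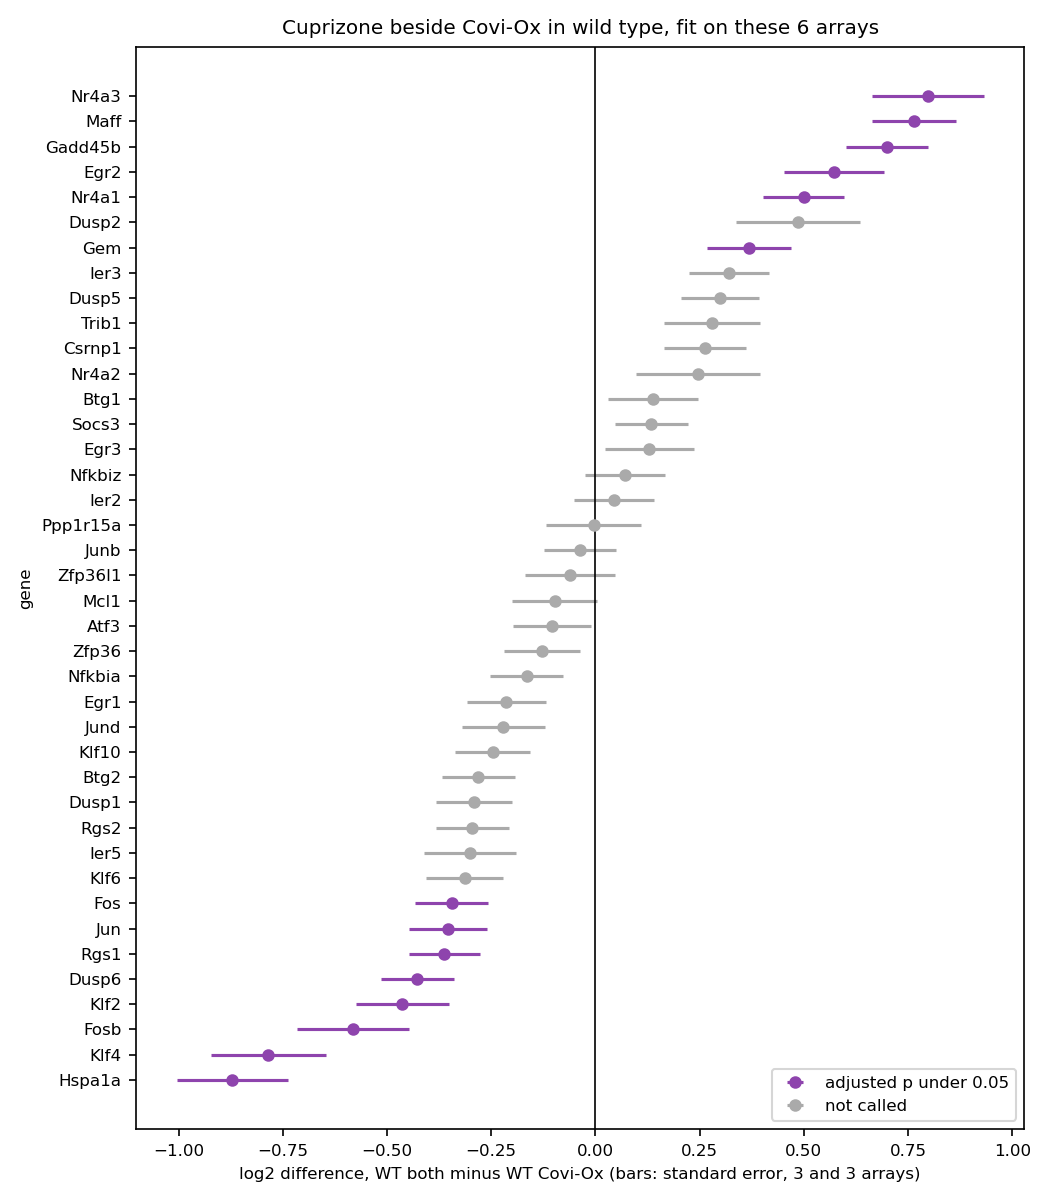
Log2 difference of each member between WT both and WT Covi-Ox, fitted on these 6 arrays (bars are standard errors, purple marks an adjusted p under 0.05). Nr4a3 (0.80), Maff (0.76) and Gadd45b (0.70) are at the top and Hspa1a (-0.87) and Klf4 (-0.78) at the bottom, with 6 members called higher and 8 lower.

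WT both was compared with WT cuprizone, which holds 1 low array. These groups differ by Covi-Ox beside cuprizone and by 2 weeks of Covi-Ox in place of normal chow before it. The median over members was 0.37 and 38 of 40 differences were positive, but 0 members were called (10 at an unadjusted p under 0.05) beside 0.152% of all genes. Dusp5, a nuclear phosphatase of ERK, read 6.23, 6.38 and 6.37 on WT both and 5.88, 5.97 and 5.54 on WT cuprizone, without overlap (0.53 ± 0.11, adjusted p = 0.0654). From the 19 arrays only Maff passed (0.61 ± 0.13, adjusted p = 0.0246) beside 1.27% of all genes. There 20 of 40 differences were positive, and the median over members was -7.01e-05.

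For Covi-Ox alone in WT the fit on all arrays called 0 members (2 at an unadjusted p under 0.05) beside 0.0338% of all genes, with a median of 0.05. The 2 members were Rgs1 and Klf10, and neither overlapped with control. Rgs1 read 9.98, 9.97 and 9.99 on WT Covi-Ox and 9.52 and 9.40 on WT control (0.53 ± 0.16, adjusted p = 0.383). Klf10, a repressor induced early by TGF-beta, read 7.64, 7.67 and 7.76 against 6.91 and 7.15 (0.66 ± 0.31, adjusted p = 0.667). With the spread estimated without the 3 low arrays, an exclusion that favours members, the same differences passed (adjusted p = 0.0271 and 0.0472), as the 2 members among 0.304% of all genes. From the 5 arrays alone they did not (adjusted p = 0.161 and 0.122). The neutrophil genes S100a8 and S100a9 differed by -5.99 and -5.24 in the same comparison, and their part was not tested.

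The knockout was compared with wild type on each diet. On control feed 0 members were called (2 at an unadjusted p under 0.05) beside 0.0676% of all genes, with a median of -0.03. Gadd45b read 7.41 and 7.20 on KO control and 8.25 and 8.496 on WT control, 2.1-fold lower without overlap (-1.07 ± 0.48, adjusted p = 0.446), and Nr4a2 5.54 and 5.58 against 6.04 and 6.20 (-0.56 ± 0.21, adjusted p = 0.349). On cuprizone 2 members were called lower in the knockout, Egr2 and Maff, beside 3.8% of all genes. Egr2 read 9.89, 8.11 and 8.28 on KO cuprizone and 10.50, 10.47 and 9.42 on WT cuprizone (-1.37 ± 0.33, adjusted p = 0.0245). Maff differed by -0.91 ± 0.22 (adjusted p = 0.0268).

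The knockout group holds 2 of the low arrays and the wild-type group 1, and the groups overlap for both genes. With the 3 left out the differences were -0.59 for Egr2 and -0.35 for Maff, which are sizes only, since KO cuprizone is then 1 array. Microglia markers averaged 11.5 to 11.7 on KO cuprizone and 11.2 to 11.4 on WT cuprizone, and their part was not tested. From the 6 arrays of these groups 0 were called too, and the count was 0 without KO cuprizone 2, KO cuprizone 3 or WT cuprizone 2, 1 (Rgs2) without WT cuprizone 1, 8 without WT cuprizone 3 and 9 without KO cuprizone 1. Averaged over control and cuprizone the median was -0.13, with 0 members called (6 at an unadjusted p under 0.05) beside 2.05% of all genes. Gadd45b was the largest of these differences (-1.17 ± 0.31, adjusted p = 0.0536), and without the 3 low arrays its size was -1.06, with KO cuprizone as 1 array. It was called without KO control 1, without KO cuprizone 1 and without WT cuprizone 3, where the count was 1, 6 and 3. For the fits without 1 array no share of all genes is printed here, so their counts show only dependence on single arrays.

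Among the knockout arrays with contradictory labels, KO set A was compared with KO control. There 0 members were called (1 at an unadjusted p under 0.05) beside 0.0338% of all genes, and without the 3 low arrays 1 was, Klf10, beside 0.279%. The second count is favoured by the exclusion, made on the values of these members. Klf10 read 7.76, 7.66 and 7.61 on KO set A and 7.19 and 6.81 on KO control (0.67 ± 0.31, adjusted p = 0.405 with all arrays and 0.0421 without the 3). Hspa1a read 9.66, 9.42 and 9.72 on KO set A, among them its highest value of the study, against 8.76 and 8.89 (0.77 ± 0.57, adjusted p = 0.636).

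KO set B had 0 members called against KO control (3 at an unadjusted p under 0.05) beside 0.744% of all genes, and 6 without the 3 low arrays beside 2.22%, all higher: Nr4a1, Klf10, Dusp5, Zfp36l1, Gem and Gadd45b. Gadd45b read 8.14, 8.91 and 8.71 on KO set B (1.28 ± 0.44, adjusted p = 0.184 with all arrays and 0.00271 without the 3). Nr4a1 read 9.88, 10.60 and 10.63 against 9.17 and 9.26 (1.15 ± 0.81, adjusted p = 0.563 and 0.00186). KO set B 1 lay below the other arrays of its set for 36 of 40 members, by a median of -0.18. Between set A and set B 0 members were called (3 at an unadjusted p under 0.05) beside 0.00845% of all genes, and without the 3 low arrays 2 were, both lower in set A, beside 0.609%: Maff (-0.56 ± 0.12, adjusted p = 0.0351) and Gadd45b (-0.84 ± 0.18, adjusted p = 0.0425). Counts and adjusted p without the 3 low arrays are favoured here too by an exclusion made on the members' own values. Neither reading of the labels was used in these values.

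Over all 8 groups at once, the moderated F test found some difference for 8 of 40 members (18 at an unadjusted p under 0.05) and for 10.9% of all genes. These were Maff (adjusted p = 0.00127), Dusp5, Rgs1, Gadd45b, Egr2, Socs3, Rgs2 and Dusp2. Dusp5, Rgs1 and Rgs2 are among the members with a small pooled SD (0.13, 0.17 and 0.11). Without the 3 low arrays 16 passed (11.7% of all genes), a count favoured by leaving out arrays for their values in these members. Socs3, a brake on cytokine receptors that signal through STAT3, read 9.48 to 10.36 on the arrays that are not low, with 10.11, 10.36 and 10.24 in KO set B and 9.63 and 10.15 in KO control, which overlap. Dusp2, a phosphatase of activated lymphoid and myeloid cells, had its highest group mean in WT both (7.62, 7.22 and 7.85, overlapping with arrays of WT control, KO set A and KO set B) and was no longer called without the 3 arrays (adjusted p = 0.0586). The F count was 27 without WT cuprizone 3, 20 without KO cuprizone 1, 3 without KO cuprizone 2 or KO cuprizone 3, and 5 without KO set A 3, KO set B 2 or KO set B 3. No share of all genes is printed here for these fits, so the F counts show only dependence on single arrays.

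Genes around the members in the same pathways were taken from 4 fixed lists, and the shares of all genes called in each comparison are those given above. Of 22 tested upstream kinases and factors 1 was higher in WT both than in WT control, Mapkapk2, the kinase downstream of p38 (0.66 ± 0.16, adjusted p = 0.0127). Against WT Covi-Ox Mapkapk2 was higher and Mapk8 (JNK1) and Mef2a lower. Mapkapk2 was lower in KO cuprizone than in WT cuprizone (-0.80 ± 0.14, adjusted p = 0.00248). Without the 3 low arrays, with KO cuprizone as 1 array, the size was -0.33. Of 28 tested relatives of the members 2 were higher and 3 lower in WT both than in WT control. Rgs16, a relative of Rgs1 and Rgs2, was higher by 1.02 ± 0.13 (adjusted p = 6.5e-05), also against WT cuprizone (0.77 ± 0.12, adjusted p = 0.00757), where no member was called. Dusp7 (-0.93 ± 0.18) and Klf3 (-0.56 ± 0.10) were lower in WT both than in WT control. Dusp3 was higher than in WT control both in WT both (0.52 ± 0.15, adjusted p = 0.0363) and in WT cuprizone (0.67 ± 0.15, adjusted p = 0.0171).

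Of 19 rapid inflammatory genes, which share the NF-kB and AP-1 signals of the members, 3 were higher in WT both than in WT control and none lower, with a median of 0.67 (7.09% of all genes called). They were Cxcl10, a chemokine for T cells (1.87 ± 0.49, adjusted p = 0.0252), Id2 (1.21 ± 0.29) and Ccrl2 (0.95 ± 0.26). Against WT Covi-Ox 4 were higher, Ptgs2 (cyclooxygenase-2) by 2.83 ± 0.67, Cxcl10 by 2.02 ± 0.44 and Il6 by 1.24 ± 0.25 among them (7.82% of all genes called). Without the 3 low arrays 12 of 19 were higher than in WT control (10.5% of all genes called), 13 of 19 higher than in WT Covi-Ox (11.6%), and 11 of 19 higher in KO set B than in KO control (2.22%), where 0 were called with all arrays. In the cuprizone-only groups 0 of 19 were called in either genotype, with medians of -0.06 in WT and -0.47 in KO, and 0.28 and 0.41 without the 3 low arrays. In WT 4 of 19 were then called higher (1.56% of all genes called), and the KO value is a size only. The medians of that list thus changed sign when these arrays were left out.

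Among 17 tested heat shock proteins, relatives of Hspa1a in function, 2 were lower in WT cuprizone than in WT control. Dnajb1, a cochaperone of HSP70, was at -1.25 ± 0.32 and Dnajb4 at -0.79 ± 0.16 (adjusted p = 0.041 and 0.0105), and without the 3 low arrays they were still called, at -0.79 and -0.61 (adjusted p = 0.0355 and 0.0251). In KO cuprizone 1 was lower, Chordc1 (-1.08 ± 0.19, adjusted p = 0.0428). In the average over genotypes 5 were lower (Dnajb1, Hspb1 and Chordc1 the most), and without the 3 low arrays, with KO cuprizone as 1 array, the size for Chordc1 was -0.67. In WT both, which holds no low array, Dnajb1 (-1.10 ± 0.32, adjusted p = 0.0403) and Chordc1 (-0.75 ± 0.19, adjusted p = 0.02) were lower than in WT control. Hspe1 was higher there (0.59 ± 0.15, adjusted p = 0.02). Hspa9 (-0.35 ± 0.09) and Hspd1 (-0.47 ± 0.12) were lower in KO cuprizone than in WT cuprizone. Hspa1a itself was not called in any of the 14 comparisons with all arrays.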

How the data were processed

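The authors deposited 1 linear intensity per probe set and array, made with RMA per the submitters' processing notes; its version, settings and build: not given in the sources used here. RMA equalizes the distributions of the arrays, which hides any shift of total RNA. From these, log2 intensity was taken and probe sets were named through the platform table (21640 of 28098 with a single gene, 1321 with several and 5137 unlisted left out). The test, limma 3.58.1 (R 4.3.3), took genes that exceeded the 50th percentile of 2 or more arrays: 1 model of 8 group means (14 residual degrees of freedom, prior 5.49), 14 contrasts and a moderated F, two-sided, Benjamini-Hochberg over 11830 genes, a call at an adjusted p under 0.05. The median standard error was 0.151 for 3 against 2 arrays and 0.136 for 3 against 3; the number of arrays limits the precision.

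Members, lists, rules and the exclusion of the 3 low arrays were chosen with earlier results of these data known. By rule, members were described by array, or on the 3 low arrays beside the range of the other 19, if called in a contrast, if among the 8 largest or 4 smallest pooled SD, or if on a fixed list of 13; of other lists up to 3 called genes a contrast were named. Members met only in alternative fits were named after their values were seen, as were the 12 members plotted by group. The workflow was tested on data simulated on 11830 genes: of changes of 1.5-fold, 2-fold and 4-fold, the WT cuprizone fit found 48%, 81% and 100%, and that of WT both against WT Covi-Ox 64%, 91% and 100%, with 9 false calls each. Changed genes were drawn at random from all genes, with noise independent between arrays and genes. These rates do not apply to the members, whose spread was wider (median SD 0.37 against 0.17) and lay mostly in the 3 low arrays. No scan date or slide is given in the files, so no batch could be tested.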

Additional observations from a re-analysis of the deposited data

How the results depend on the processing

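Array number and the shared spread limit every count of called members here, and no alternative turned the direction of the 5 member calls made with all arrays. Maff against control in WT both kept its call in 31 of 33 alternatives and Nr4a3 in 28. Maff against WT Covi-Ox kept it in 18, and on cuprizone Maff and Egr2 between genotypes in 26 and 27.

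Without the 3 low arrays the members called were 1 for WT cuprizone, 2 for WT Covi-Ox, 6 for WT both, 1 for WT both against cuprizone, 17 for WT both against Covi-Ox, 1 for the cuprizone effect averaged over genotypes (Nr4a1, higher), 0 for genotype on cuprizone, 1 for genotype averaged over feeds, 1 for KO set A, 6 for KO set B, 2 for set A against set B and 16 for any difference, and the median SD within groups was 0.135 in place of 0.366. The averaged cuprizone effect and both genotype counts then rest on KO cuprizone 1 as a lone array, assumed to vary like the other groups, and show no more than sizes. From the groups compared alone they were 6 for WT both, 14 for WT both against Covi-Ox and 0 for genotype on cuprizone. With array weights they were 4 for WT both, 1 for WT both against cuprizone, 7 for WT both against Covi-Ox, 13 for genotype on cuprizone, 2 for genotype averaged and 25 for any difference. The weight was 0.29 for WT cuprizone 3 and 0.52 for KO cuprizone 1, but 1.25 and 0.78 for KO cuprizone 2 and 3. The weighted genotype count on cuprizone thus set low KO arrays mainly against WT arrays that are not low. WT both against Covi-Ox gave 0 with no filter, 2 after quantile normalization and 3 with trend and robust variance. A filter at the 75th percentile gave 2 for the averaged cuprizone effect and 2 for genotype averaged, and median centring 2 for the latter. For array weights and the settings named after it no share of all genes is printed, so these counts show only how far they moved.

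Leaving out 1 array in turn gave 0 to 3 for WT both, 0 to 1 for WT both against cuprizone, 0 to 5 for WT both against Covi-Ox, 0 to 7 for KO cuprizone, 0 to 20 for the averaged cuprizone effect, 0 to 1 for genotype by cuprizone, 0 to 9 for genotype on cuprizone, 0 to 6 for genotype averaged, 0 to 2 for KO set B, 3 to 27 for any difference and a median SD of 0.221 to 0.380. Shares of all genes are not printed for these fits either. The cause of these shifts was not tested beyond the arrays left out.

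Replicate numbers did not pair the arrays (median correlation of deviations 0.00 for 71 pairs with the same number and 0.00 for 140 with different numbers). With the replicate number as a block the members called were 2 for WT both, 1 for WT both against Covi-Ox and 2 for genotype on cuprizone, as without it, and 0 in each other contrast; the F test was not run with the block or within the groups compared.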
